A study of Mus musculus with 16 samples.

Results

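The p62, KEAP1 and NRF2 axis was followed in primary podocytes through 10 genes: Sqstm1, Keap1, Cul3, Nfe2l2, Nfe2l1, Bach1, Mafg, Maff, Mafk and Nqo1. They were chosen by name, with earlier results of these data known. Every array probe whose transcript accession mapped to one of these mouse genes was kept, which gave 12 of 56605 probes. Sqstm1 and Nfe2l1 each had 2 probes and the other genes had 1. All 12 probes were well above background on all 16 arrays and were therefore among the 27579 probes tested.

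Podocytes, the epithelial cells that cover the glomerular capillaries, were grown out of glomeruli isolated on magnetic beads from male Jcl:ICR mice, and total RNA was hybridised to one-colour Agilent mouse arrays. All mice carried loxP sites around exons 3 and 4 of Tsc2, whose product restrains the growth kinase complex mTORC1. Tsc2Δpodocyte mice also carried 1 copy of a Cre transgene that is active in podocytes, and Tsc2flox/flox mice without Cre were the controls. There were 4 samples of each genotype at 4 weeks of age without treatment, and 4 of each at 5 weeks of age, 1 week after rapamycin, an inhibitor of mTORC1 given to the mouse.

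In this pathway, KEAP1 joins the transcription factor NRF2 to a CUL3 ubiquitin ligase, and NRF2 is degraded by the proteasome while cells are unstressed. Electrophiles and oxidants modify KEAP1, and the autophagy receptor p62, encoded by Sqstm1, can bind KEAP1 in place of NRF2, so that NRF2 accumulates, pairs with a small MAF protein and binds antioxidant response elements. BACH1 competes for the same elements as a repressor. Much of this control acts on proteins, whereas the arrays measured RNA. The arrays carried RNA of whole cultures, in which fewer cells of a type and less RNA per cell cannot be told apart.

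The untreated groups lay on 1 slide and the rapamycin groups on another, so slide, age and treatment cannot be told apart, and on both slides row 1 held Tsc2Δpodocyte and row 2 Tsc2flox/flox samples, so row and genotype cannot either. Nothing states that each sample was a mouse of its own, and the p-values therefore measure spread that could be technical in part. Correlations between arrays were 0.978 to 0.992 within groups. The brighter Tsc2 probe was lower on every Tsc2Δpodocyte array (1.93 to 2.73 on the log2 scale) than on every Tsc2flox/flox array (2.83 to 3.71). Whether it lies in the deleted exons was not determined. All 12 listed podocyte markers were tested, among them Wt1, above background on 16 arrays, and Nphs1, on 15. All 10 listed markers each of endothelium, of macrophages and leukocytes, and of mesangium and smooth muscle, all 8 of parietal epithelium and 4 of 8 of tubules were measured too.

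Promoters of 4 members are shown because an element of this pathway would be sought there. Sqstm1, Nqo1 and Nfe2l2 were higher in untreated Tsc2Δpodocyte than in untreated Tsc2flox/flox podocytes. Maff was lower in Tsc2Δpodocyte than in Tsc2flox/flox podocytes when both had rapamycin. Each promoter is the 250 bases before the annotated start in RefSeq (GRCm38.p6), 5′ to 3′ on the gene's strand. Matches to the antioxidant response element core TGACNNNGC are in capitals. For Maff the first of 3 starts is shown, the only one of them with a match. Nfe2l1 and Bach1 also passed in these comparisons, and their windows, which held no match, are not shown.
Sqstm1, chr11:50210821-50211070, minus strand: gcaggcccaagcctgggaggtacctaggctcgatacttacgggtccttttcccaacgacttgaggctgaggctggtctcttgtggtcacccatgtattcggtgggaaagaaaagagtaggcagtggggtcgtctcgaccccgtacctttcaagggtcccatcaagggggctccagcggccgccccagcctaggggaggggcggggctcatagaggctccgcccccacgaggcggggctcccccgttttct
Nqo1, chr8:107403206-107403455, minus strand: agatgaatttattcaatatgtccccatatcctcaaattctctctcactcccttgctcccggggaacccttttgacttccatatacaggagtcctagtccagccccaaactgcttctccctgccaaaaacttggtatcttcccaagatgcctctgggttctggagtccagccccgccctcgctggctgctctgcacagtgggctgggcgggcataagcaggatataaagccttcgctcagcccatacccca
Nfe2l2, chr2:75704664-75704913, minus strand: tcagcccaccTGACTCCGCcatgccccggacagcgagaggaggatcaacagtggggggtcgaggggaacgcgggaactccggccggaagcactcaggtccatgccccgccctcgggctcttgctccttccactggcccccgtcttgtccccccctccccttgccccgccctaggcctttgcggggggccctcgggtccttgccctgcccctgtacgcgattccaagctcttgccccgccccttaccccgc
Maff, chr15:79346371-79346620, plus strand: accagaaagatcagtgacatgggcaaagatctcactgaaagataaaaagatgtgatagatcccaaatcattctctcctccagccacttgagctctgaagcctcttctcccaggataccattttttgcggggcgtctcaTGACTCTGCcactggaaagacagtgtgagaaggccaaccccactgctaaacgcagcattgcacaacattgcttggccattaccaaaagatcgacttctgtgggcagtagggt
All 10 genes matched the promoter table, with 16 annotated starts in all, 5 of them of Nfe2l1 and 3 of Maff. On either strand, TGACNNNGC was found in 4 of the 16 windows, and 10.2% of 32851 mouse promoters of this length hold it. These were Nfe2l2 (first base 240 bases before the start), the first start of Maff (112 before), Mafg (222 before) and Mafk (13 before). The E-box CACGTG, which factors of the TFEB family bind, was found in 3 windows (6.02% of promoters), those of Mafk, Mafg and the second start of Maff, where it lay within the longer TCACGTGA. No window held the AP-1 letters TGACTCA (4.46% of promoters), which share TGAC with the first motif. In the Sqstm1 and Nqo1 windows none of these letters was found, which says nothing of elements farther away.

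Without treatment, Sqstm1, Nqo1, Nfe2l2 and Nfe2l1 were higher in Tsc2Δpodocyte than in Tsc2flox/flox podocytes, and no member was lower at the threshold. By limma with Benjamini-Hochberg adjustment over all 27579 probes, 5 of the 12 probes were higher at an adjusted p under 0.05, against 9.59% of all probes, and 3 of them also reached 1.5-fold (5.95%). None was lower, against 8.42% of all probes. At an unadjusted p under 0.05, 8 of the 12 probes passed in either direction (32.8% of all probes). The median log2 fold change was 0.33 over the 12 probes and -0.02 over all probes. The 4 values of one genotype lay wholly above those of the other for 6 probes (12.3% of all probes) and wholly below for 2 (12.2%).

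After rapamycin, Sqstm1 and Nfe2l2 were again higher in Tsc2Δpodocyte podocytes, Bach1 and Maff were lower, and Nqo1 did not pass. In this comparison 3 of the 12 probes were higher (5.70% of all probes) and 2 lower (4.59%). Of these, 2 probes, both of Sqstm1, were higher by at least 1.5-fold (2.70% of all probes) and none was lower by as much (2.59%). At an unadjusted p under 0.05, 6 of the 12 passed (26.2% of all). The median log2 fold change was 0.16 over the 12 probes and 0.00 over all. The genotypes did not overlap for 5 probes that were higher (9.71% of all) and 2 that were lower (7.42%).

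**Figure D1:**
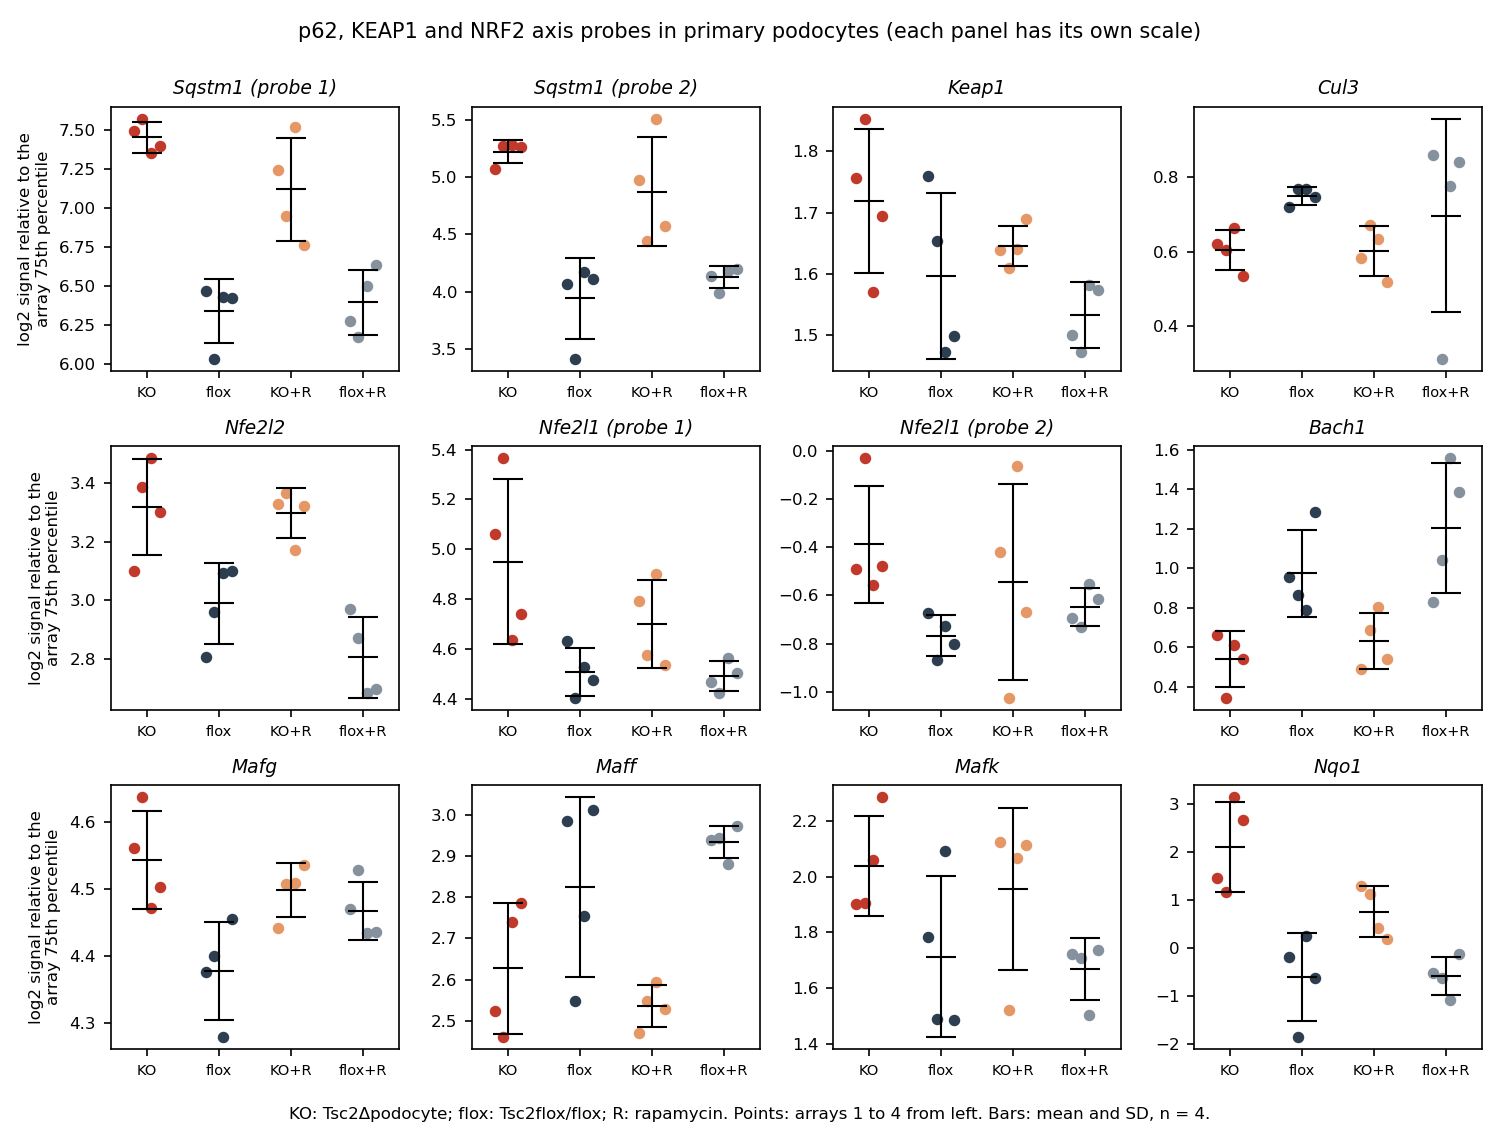
Normalized log2 signal (array 75th percentile at 0) of each of the 12 probes on the 16 arrays, with group mean and SD over 4 arrays; each panel has its own scale, and KO and flox stand for Tsc2Δpodocyte and Tsc2flox/flox. All 8 Tsc2Δpodocyte arrays lie above all 8 Tsc2flox/flox arrays for both Sqstm1 probes, while the genotypes differ by 0.12 and 0.11 on the log2 scale for Keap1.

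Sqstm1 (chr11:50200152-50210820, GRCm38.p6) encodes p62, which carries ubiquitylated cargo into autophagosomes and is itself degraded there. On its brighter probe, the log2 signal was 7.49, 7.57, 7.35 and 7.40 on the untreated Tsc2Δpodocyte arrays and 6.47, 6.03, 6.43 and 6.43 on the Tsc2flox/flox arrays. After rapamycin it was 7.25, 6.95, 7.52 and 6.77 against 6.28, 6.18, 6.50 and 6.63. The genotypes did not overlap under either condition, and Tsc2flox/flox replicate 2 was the lowest of all arrays.

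The untreated difference of 1.11 (standard error 0.16) is 2.16-fold, with an adjusted p of 0.000447 from limma. After rapamycin the difference was 0.72 (standard error 0.16, 1.65-fold, limma adjusted p = 0.0119). The second Sqstm1 probe gave 1.28 (standard error 0.21, limma adjusted p = 0.000989) and 0.75 (standard error 0.21, limma adjusted p = 0.0339). The untreated call held on both probes in all 26 alternative settings. The rapamycin call depended on the processing: with normexp background correction the differences were 0.41 and 0.48 (limma adjusted p = 0.171 and 0.169). Both probes also lost it with only the arrays compared (limma adjusted p = 0.0562 and 0.0832). The same held for the methods' t-test with adjustment (t-test adjusted p = 0.0980 and 0.141). With no filter on dim probes the dimmer probe lost it (limma adjusted p = 0.0892). The call on the dimmer probe after rapamycin was also lost without Tsc2Δpodocyte + Rapamycin replicate 1 or 3 or any one of the 4 Tsc2flox/flox + Rapamycin arrays (differences 0.54 to 0.77, limma adjusted p = 0.0613 to 0.0842).

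Keap1 (chr9:21229730-21239332), the adaptor that presents NRF2 to the ligase and senses electrophiles, was close between genotypes. Its signal was 1.76, 1.85, 1.57 and 1.70 on the untreated Tsc2Δpodocyte arrays and 1.76, 1.65, 1.47 and 1.498 on the Tsc2flox/flox arrays. After rapamycin it was 1.64, 1.61, 1.64 and 1.69 against 1.501, 1.47, 1.58 and 1.57. The untreated groups overlapped and the treated groups did not. The differences were 0.12 (95% interval -0.05 to 0.30) and 0.11 (-0.06 to 0.29), with limma adjusted p of 0.316 and 0.416.

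Cul3 (chr1:80264923-80340690) is the scaffold of the ligase that KEAP1 joins. Its log2 signal was 0.53 to 0.66 on the untreated Tsc2Δpodocyte arrays and 0.72 to 0.77 on the Tsc2flox/flox arrays, which did not overlap. The difference was -0.15 (95% interval -0.37 to 0.08, limma adjusted p = 0.351), which passed by the methods' t-test with adjustment. After rapamycin the range was 0.52 to 0.67 against 0.31 to 0.86, with replicate 2 of Tsc2flox/flox + Rapamycin at 0.31 and its other 3 arrays at 0.77 or higher. That difference was -0.10 (limma adjusted p = 0.612).

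Nfe2l2 (chr2:75675513-75704663) encodes NRF2. Its signal was 3.0996, 3.39, 3.49 and 3.30 on the untreated Tsc2Δpodocyte arrays and 2.81, 2.96, 3.09 and 3.1004 on the Tsc2flox/flox arrays. After rapamycin it was 3.33, 3.37, 3.17 and 3.32 against 2.97, 2.87, 2.68 and 2.70. The untreated groups met, with the lowest Tsc2Δpodocyte array just under the highest Tsc2flox/flox array, and the treated groups were apart. The differences were 0.33 (standard error 0.10, 1.26-fold, limma adjusted p = 0.0397) and 0.49 (standard error 0.10, 1.41-fold, limma adjusted p = 0.0101). The untreated call held in 15 of 26 alternative settings and the treated call in 25. These settings include the t-test without adjustment, which is easier to pass. They also include omissions of arrays outside the comparison, which change its estimated error alone. The untreated call was lost without Tsc2Δpodocyte replicate 2, 3 or 4, Tsc2flox/flox replicate 1 or 2, or Tsc2Δpodocyte + Rapamycin replicate 1 (differences 0.27 to 0.33, limma adjusted p = 0.0507 to 0.103).

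Nfe2l1 (chr11:96817414-96829968) encodes NRF1, a related factor anchored in the endoplasmic reticulum that drives proteasome genes when proteasomes are impaired. On its brighter probe the untreated Tsc2Δpodocyte arrays read 5.06, 5.37, 4.64 and 4.74 and the Tsc2flox/flox arrays 4.63, 4.40, 4.53 and 4.47. The groups did not overlap but nearly met, at 4.64 and 4.63, and the rise came to 0.44 (standard error 0.14, 1.36-fold, limma adjusted p = 0.0394), a call that held in 15 of 26 settings. It was lost without Tsc2Δpodocyte replicate 1 or 2, Tsc2flox/flox replicate 2, 3 or 4, or Tsc2flox/flox + Rapamycin replicate 4 (differences 0.30 to 0.45, limma adjusted p = 0.0508 to 0.108). On the dimmer probe the difference was 0.38 (standard error 0.17, limma adjusted p = 0.130). After rapamycin the differences were 0.21 and 0.10 (limma adjusted p = 0.364 and 0.749), and the genotypes overlapped on both probes.

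Bach1 (chr16:87698954-87733346) encodes the haem-sensitive repressor that occupies antioxidant response elements. Its signal was 0.66, 0.34, 0.61 and 0.54 on the untreated Tsc2Δpodocyte arrays and 0.96, 0.87, 0.79 and 1.28 on the Tsc2flox/flox arrays. After rapamycin it was 0.49, 0.69, 0.80 and 0.54 against 0.83, 1.04, 1.56 and 1.39. Every Tsc2Δpodocyte array lay below every Tsc2flox/flox array of the same treatment. The untreated difference of -0.43 (standard error 0.15) had a limma adjusted p of 0.0650, and the difference after rapamycin, -0.57 (standard error 0.15, 1.49-fold lower), passed at 0.0305. The latter call held in 18 of 26 settings and was lost without replicate 1 or 4 of Tsc2Δpodocyte + Rapamycin or replicate 3 or 4 of Tsc2flox/flox + Rapamycin (differences -0.46 to -0.54, limma adjusted p = 0.0690 to 0.0977). The untreated difference of -0.43 passed without Tsc2flox/flox + Rapamycin replicate 1 or 3, which changed its estimated error alone (limma adjusted p = 0.0423 and 0.0480).

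The small MAF proteins lack an activating domain and serve as DNA-binding partners of both NRF2 and BACH1. Maff (chr15:79346621-79359078) read 2.52, 2.46, 2.74 and 2.79 on the untreated Tsc2Δpodocyte arrays and 2.98, 2.55, 2.75 and 3.01 on the Tsc2flox/flox arrays. After rapamycin it read 2.47, 2.55, 2.60 and 2.53 against 2.94, 2.94, 2.88 and 2.97. The groups overlapped without treatment (difference -0.20, limma adjusted p = 0.206) and were apart after rapamycin (-0.40, standard error 0.10, 1.32-fold lower, limma adjusted p = 0.0280, which held in 18 of 26 settings). That call was lost without replicate 1 or 4 of Tsc2Δpodocyte + Rapamycin or any one Tsc2flox/flox + Rapamycin array (differences -0.38 to -0.42, limma adjusted p = 0.0510 to 0.0743).

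Mafg (chr11:120625117-120634955) ranged from 4.47 to 4.64 in untreated Tsc2Δpodocyte and from 4.28 to 4.45 in Tsc2flox/flox podocytes, which did not overlap, a difference of 0.17 (standard error 0.07, limma adjusted p = 0.0966). After rapamycin the ranges were 4.44 to 4.54 and 4.43 to 4.53. That difference was 0.03 (limma adjusted p = 0.809), and it turned to -0.04 with quantile normalization and to -0.31 (limma adjusted p = 0.0111) with normexp. Mafk (chr5:139791536-139802653) ranged from 1.90 to 2.28 against 1.48 to 2.09 without treatment and from 1.52 to 2.12 against 1.505 to 1.74 after it. Its genotypes overlapped each time (differences 0.32 and 0.29, limma adjusted p = 0.170 and 0.271).

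Nqo1 (chr8:107388225-107403205) encodes a quinone reductase and is one of the best known NRF2 targets. It read 1.46, 1.17, 3.15 and 2.66 on the untreated Tsc2Δpodocyte arrays and -0.19, -1.86, 0.26 and -0.62 on the Tsc2flox/flox arrays. After rapamycin it read 1.30, 1.12, 0.41 and 0.20 against -0.51, -0.62, -1.08 and -0.13. The genotypes did not overlap under either condition, and the spread within each untreated genotype (SD 0.95 and 0.91) was wider than after rapamycin (SD 0.54 and 0.39), a difference in spread that was not tested.

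The untreated difference in Nqo1 was 2.71 (standard error 0.48), or 6.56-fold, with a limma adjusted p of 0.00193. It held in 25 of 26 settings and failed in the methods' t-test after adjustment. After rapamycin the difference was 1.35 (95% interval 0.32 to 2.37, limma adjusted p = 0.0889), which passed in 3 of 26 settings: normexp, the treated arrays alone, and the methods' t-test without adjustment.

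**Figure D2:**
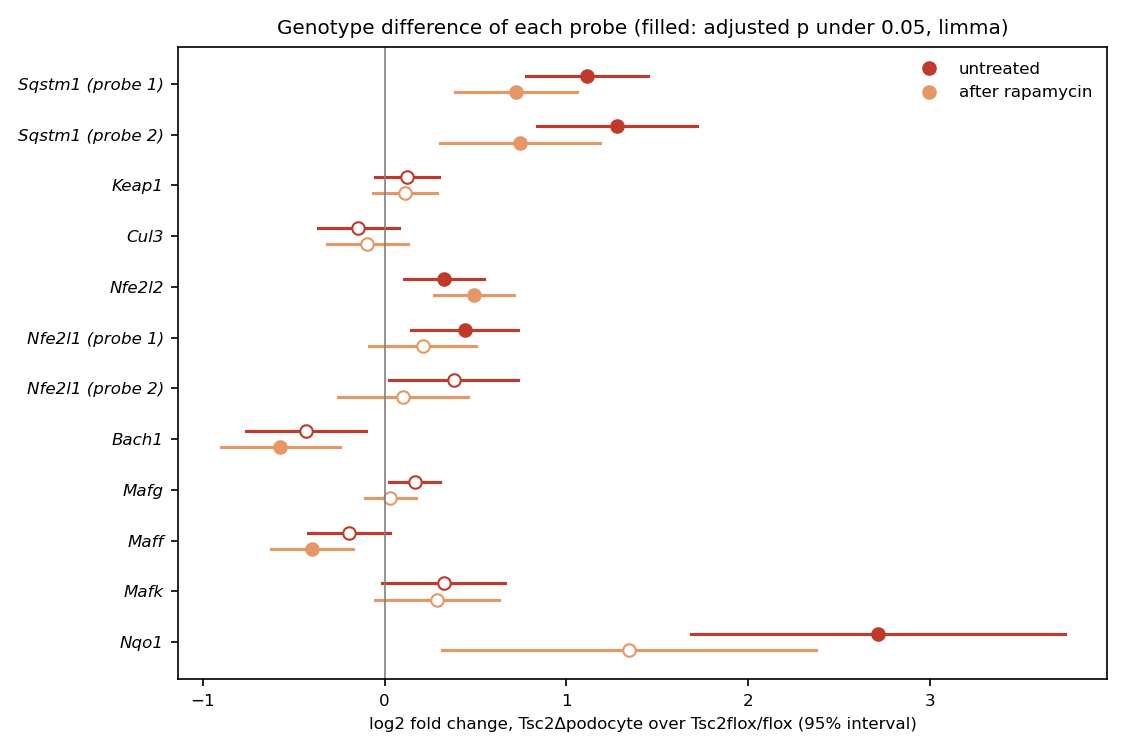
Log2 fold change of Tsc2Δpodocyte over Tsc2flox/flox podocytes for each of the 12 probes with its 95% interval, untreated and after rapamycin; filled points have a limma adjusted p under 0.05. Nqo1 has the widest intervals, with 2.71 and 1.35, both Sqstm1 probes lie above 0.7 each time, and Keap1 and Cul3 span 0.

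The difference between the 2 genotype effects was tested for each probe as an interaction. None of the 12 probes passed by limma (0.00363% of all probes did), and none had an unadjusted p under 0.05 (7.36% of all probes). For Nqo1 the genotype difference was smaller after rapamycin by 1.37 on the log2 scale (95% interval of the interaction -2.82 to 0.09, limma adjusted p = 0.706). For the brighter Sqstm1 probe the interaction was -0.39 (-0.86 to 0.08, limma adjusted p = 0.744). For Nfe2l2 it was 0.16 (-0.15 to 0.48, limma adjusted p = 0.828). Effects that passed in one condition and not in the other, as for Nqo1, Nfe2l1, Bach1 and Maff, were thus not shown to differ between them.

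Rapamycin was also compared within each genotype, where treatment, age and slide go together. In Tsc2Δpodocyte podocytes none of the 12 probes passed by limma (3.38% of all probes did), 1 had an unadjusted p under 0.05 (22.3% of all), and the methods' t-test gave 0 with adjustment and 1 without. That probe was Nqo1, at 1.17 to 3.15 untreated and 0.20 to 1.30 after rapamycin, a difference of -1.35 (95% interval -2.38 to -0.32, limma adjusted p = 0.120). The brighter Sqstm1 probe differed by -0.33 (95% interval -0.67 to 0.00, limma adjusted p = 0.226). In Tsc2flox/flox podocytes none passed by limma (0.156% of all probes did), none had an unadjusted p under 0.05 (16.2% of all) and none passed the methods' t-test with or without adjustment. There Nqo1 differed by 0.02 (95% interval -1.01 to 1.05) and the brighter Sqstm1 probe by 0.06 (-0.28 to 0.39).

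Sqstm1 and Nqo1 were set against each other across the 16 arrays, on the brighter Sqstm1 probe. Pearson's r was 0.823 (permutation p = 7e-05, adjusted p = 0.00028 over 12 relations) and Spearman's rho 0.832 (permutation p = 0.00022). Many genes followed Sqstm1 more closely: by r with it, Nqo1 ranked 650 of 14089 genes. By r with Nqo1, Sqstm1 ranked 88, on its dimmer probe (r = 0.830). Without the 2 arrays farthest from the Sqstm1 median r was 0.910. On the 8 untreated arrays alone r was 0.868 (exact permutation p = 0.00846, adjusted p = 0.0203), and on the 8 rapamycin arrays 0.758 (exact permutation p = 0.0311, adjusted p = 0.0623). By rank the order was the other way, with rho of 0.738 (exact permutation p = 0.0458, adjusted p = 0.0917) untreated and 0.857 (exact permutation p = 0.0107, adjusted p = 0.0268) after rapamycin. All of these values hold the genotype difference, in which both genes were higher in Tsc2Δpodocyte podocytes. The arrays were permuted without regard to genotype, so these p-values do not test a relation apart from it, and the values are a description.

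Within a genotype the relation was not shown. Over the 8 Tsc2Δpodocyte arrays of both treatments r was 0.341 (exact permutation p = 0.418), and without the 2 farthest from the Sqstm1 median it was -0.448. Over the 8 Tsc2flox/flox arrays r was 0.647 (exact permutation p = 0.0806), and 0.102 without the 2 farthest. For deviations from the 4 group means r was 0.183 over 16 arrays (exact permutation within groups, p = 0.479, adjusted p = 0.522), and it turned to -0.102 without Tsc2flox/flox replicate 2, which was lowest in both genes. That value pools groups of opposite sign. Over 4 arrays each, r was -0.978 in untreated Tsc2Δpodocyte and 0.919 in untreated Tsc2flox/flox podocytes. After rapamycin it was 0.127 and 0.219. These values within single groups were not tested. The 2 Sqstm1 probes deviated together (r = 0.843, exact permutation within groups, p = 0.00575, adjusted p = 0.0172).

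**Figure D3:**
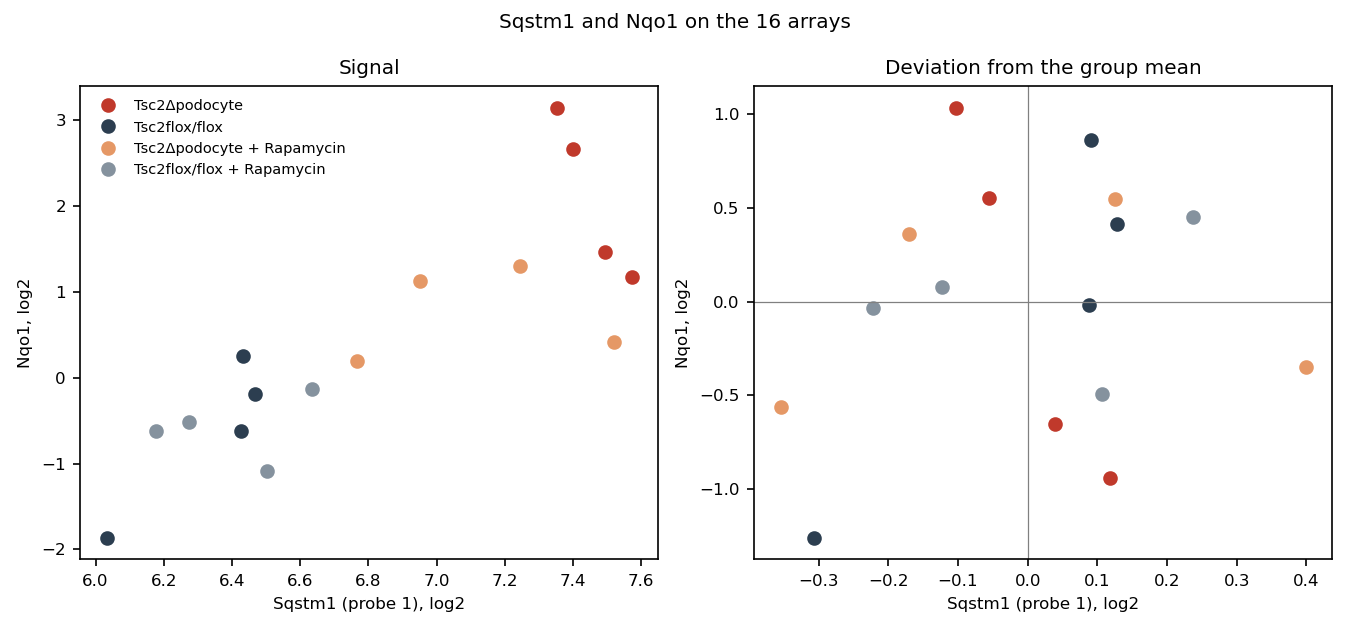
Log2 signal of Nqo1 against Sqstm1 (brighter probe) on the 16 arrays, as measured on the left and as deviations from each group's mean on the right, coloured by group. On the left the Tsc2Δpodocyte arrays lie to the upper right of the Tsc2flox/flox arrays (r = 0.823). On the right r is 0.183 over all groups. Within the untreated groups of 4 it is -0.978 for Tsc2Δpodocyte and 0.919 for Tsc2flox/flox.

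As a description, the genes whose signal followed each of these genes most closely over the 16 arrays were listed, 1 probe a gene among tested probes. For Sqstm1 these were Creg1, Dpp7, Tmem192, Gnptg and Cat, with r of 0.966 to 0.971. Creg1, Dpp7 and Tmem192 encode proteins of lysosomes, Gnptg a subunit of the enzyme that tags lysosomal hydrolases, and Cat encodes catalase. For Nqo1 they were the glutathione S-transferase Gsta2, Gm10639, the glutathione synthetase Gss, the carbonyl reductase Cbr3 and Gclm, the modifier subunit of the enzyme that starts glutathione synthesis, with r of 0.934 to 0.952. Probes of Gsta2 and of close relatives may share transcripts.

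By deviations from group means, the genes most like Sqstm1 were Tex264, Saraf, Zmynd12, Lamp2 and Gnptg (r of 0.913 to 0.954). Tex264 encodes a receptor for autophagy of the endoplasmic reticulum and Lamp2 a lysosomal membrane protein. Those most like Nqo1 were Camk4, Gsta2, Gm10639, Tbc1d10a and Cbr3 (r of 0.823 to 0.892). Gsta2, Gm10639 and Cbr3 were among the 5 by both measures. By deviations, Nqo1 ranked 6209 of 14089 genes in likeness to Sqstm1, and Sqstm1 ranked 1597 in likeness to Nqo1.

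Most other listed targets of NRF2 were also higher in Tsc2Δpodocyte podocytes. Of 40 listed NRF2 targets other than Nqo1, 39 were tested on their brightest probe. Without treatment 27 were higher in Tsc2Δpodocyte podocytes at a limma adjusted p under 0.05 (10.3% of all tested genes) and none was lower (9.20%), with a median log2 fold change of 0.67 against -0.01 over all genes. Srxn1, which repairs oxidised peroxiredoxins, rose by 2.28 (standard error 0.20, limma adjusted p = 3.3e-05). Hmox1, which breaks down haem, rose by 1.86 (standard error 0.20, limma adjusted p = 9.18e-05), and Blvrb, a biliverdin reductase, by 1.74 (standard error 0.19, limma adjusted p = 9.93e-05). The list was written with earlier results of these data known.

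After rapamycin 19 of the 39 targets were higher (6.20% of all genes) and none was lower (4.97%), with a median of 0.48 against 0.01. Srxn1 rose by 1.60 (standard error 0.20, limma adjusted p = 0.000765), the haem transporter Slc48a1 by 1.31 (standard error 0.17, limma adjusted p = 0.00104) and Hmox1 by 1.46 (standard error 0.20, limma adjusted p = 0.00130). For the interaction none of the 39 passed.

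Within Tsc2Δpodocyte podocytes, 11 of the 39 targets were lower after rapamycin than before (1.53% of all genes) and none was higher (1.97%), with a median of -0.36 against 0.01. Akr1a1, an aldehyde reductase, fell by 0.34 (limma adjusted p = 0.0228), the ferritin heavy chain gene Fth1 by 0.38 (limma adjusted p = 0.0275) and the epoxide hydrolase Ephx1 by 0.67 (limma adjusted p = 0.0283). This count depended on single arrays: it was 0 without Tsc2Δpodocyte + Rapamycin replicate 4 and between 1 and 6 without any one of the other 7 Tsc2Δpodocyte arrays. It was 0 without the filter on dim probes, 3 with quantile normalization and 1 with only the arrays compared. In Tsc2flox/flox podocytes none of the 39 passed in either direction (0.163% of all genes did), with a median of -0.12 against 0.00 over all genes.

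**Figure D4:**
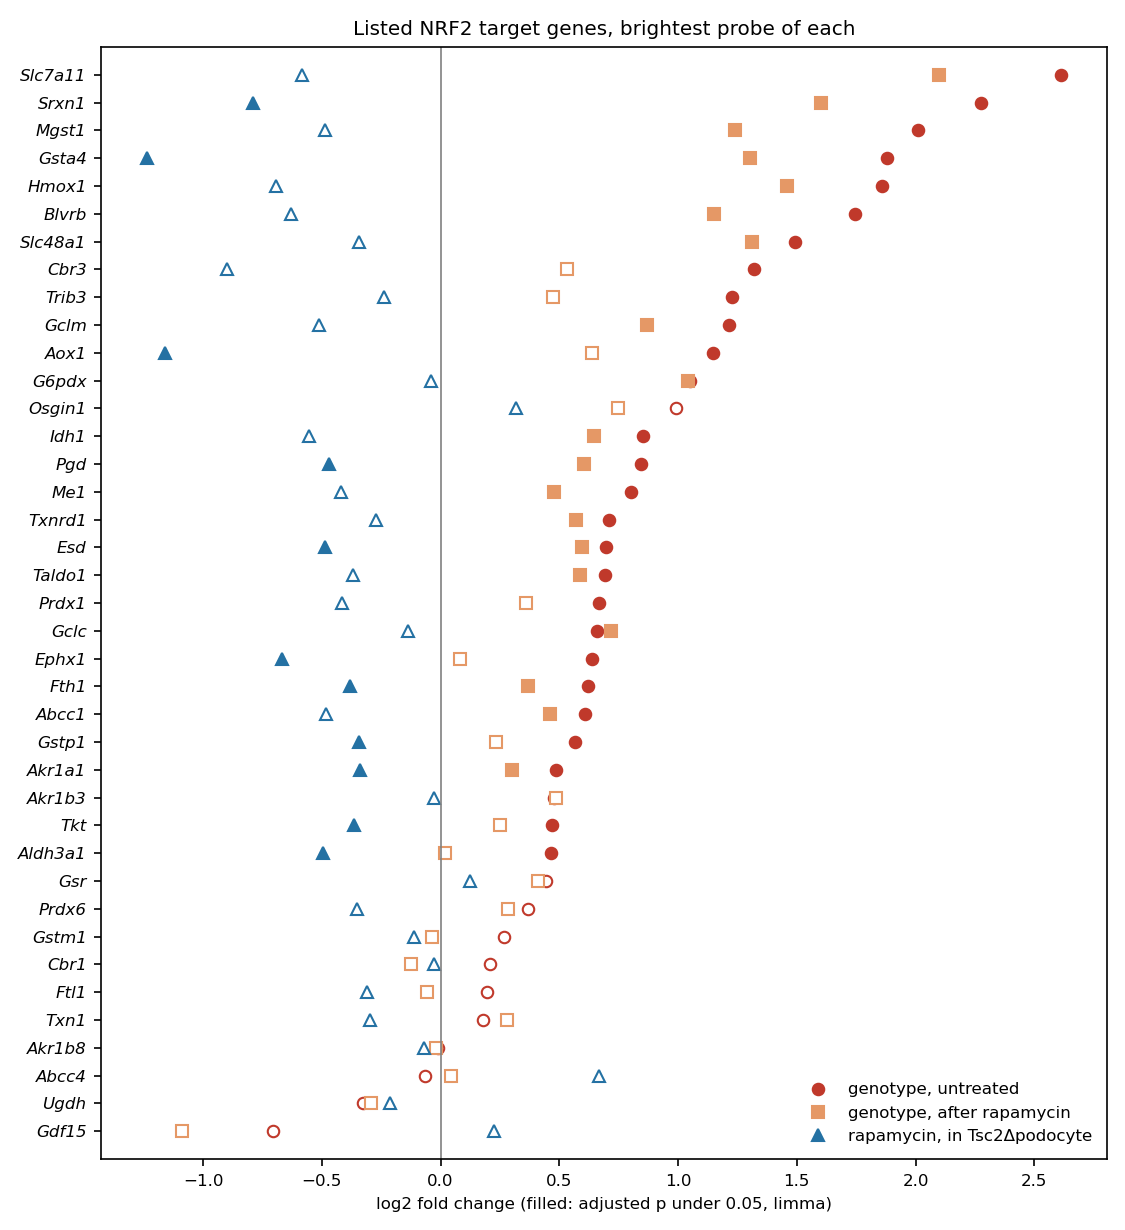
Log2 fold change of 39 listed NRF2 target genes on their brightest probe, for the genotype difference untreated and after rapamycin and for rapamycin against no treatment in Tsc2Δpodocyte podocytes; filled symbols have a limma adjusted p under 0.05. The genotype differences lie mostly to the right of 0 (27 and 19 passing, none lower), and 11 genes passed to the left of 0 for rapamycin.

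Read on its brightest probe, no gene of the 3 lists around KEAP1 and NRF2 that follow was higher. Over all genes, 10.3% were higher without treatment and 6.20% after rapamycin, and 9.20% and 4.97% were lower. In the first list, 1 dimmer probe of Rnf7 was higher after rapamycin and 1 of Dcun1d1 was lower. Of 20 genes of cullin ligases and the NEDD8 system that switches them on, 4 were lower without treatment (median over the list -0.03), among them the cullin exchange factors Cand1 (-0.28, limma adjusted p = 0.0185) and Cand2 (-0.61, limma adjusted p = 0.0258) and the signalosome subunit Cops2 (-0.22, limma adjusted p = 0.0258). After rapamycin 2 were lower (median -0.02), Cand1 (-0.27, limma adjusted p = 0.0348) and Uba3, the catalytic subunit of the NEDD8-activating enzyme (-0.26, limma adjusted p = 0.0353). Of 12 genes for KEAP1-binding proteins, Amer1 (-0.46, limma adjusted p = 0.00329) and Ptma (-0.36, limma adjusted p = 0.0378) were lower without treatment and Amer1 after it (-0.46, limma adjusted p = 0.00725). The medians of this list were -0.08 and -0.01.

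Among 15 other regulators of NRF2, the nuclear receptor gene Rxra (-0.44, limma adjusted p = 0.0264) and the GTPase gene Rac3 (-0.68, limma adjusted p = 0.0492) were lower without treatment. On the brightest probes none passed after rapamycin (medians -0.05 and -0.13). Of the dimmer probes, 1 of Fbxw11 and 1 of Ep300 were lower both times, and 1 of Chd6 was lower without treatment. Rac3 was listed by its symbol, which is also used for a coactivator gene, Ncoa3, so that its place among regulators of NRF2 is unsure. Bach2, the relative of Bach1, was lower both times, by -1.25 (standard error 0.12, limma adjusted p = 7.42e-05) and -1.05 (standard error 0.12, limma adjusted p = 0.000689). Of the other relatives, Nfe2l3 did not pass and Nfe2 was not tested. The large MAF genes Maf and Mafa did not pass in any comparison on their brightest probes.

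Of 19 autophagy receptors and partners of p62, the ATG8 gene Gabarapl1 (0.41, limma adjusted p = 0.0108), the receptor gene Optn (0.65, limma adjusted p = 0.0284) and Gabarap (0.28, limma adjusted p = 0.0450) were higher without treatment, and Prkci, an atypical protein kinase C that binds p62 (-0.42, limma adjusted p = 0.0306), was the 1 lower. After rapamycin Optn alone passed (0.69, limma adjusted p = 0.0324). Here too each gene was read on its brightest probe. The medians of this list were 0.21 and 0.15, against -0.01 and 0.01 over all genes, of which 10.3% were higher and 9.20% lower without treatment. Proteasome genes, which NRF1 drives, numbered 32: Psmd1 was higher without treatment (0.48, limma adjusted p = 0.0345), Psmb2 and Psmd2 after rapamycin (0.42 and 0.27, limma adjusted p = 0.00760 and 0.0237), and none was lower (medians 0.05 and 0.09). After rapamycin 6.20% of all genes were higher and 4.97% lower. Among 5 genes that process NRF1, Fbxw7, an adaptor of its ligase, was higher both times (0.55 and 0.50, limma adjusted p = 0.0154 and 0.0363), with medians of -0.04 and 0.09 over the list.

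Some marker genes of other cells, each read on its brightest probe, also differed between genotypes, and most did not pass. The mean log2 signal of the 10 mesangial and smooth muscle markers was 1.58 to 2.02 on the untreated Tsc2Δpodocyte arrays and 1.00 to 1.52 on the Tsc2flox/flox arrays, with 3 of 10 higher at the threshold (10.3% of all genes were). That of the 8 parietal epithelial markers was 1.56 to 2.22 against 2.48 to 3.15, with 2 of 8 lower (9.20% of all genes were). After rapamycin the means of both lists overlapped between genotypes, but 1 of 10 mesangial and smooth muscle markers was higher (6.20% of all genes) and 2 of 8 parietal markers were lower (4.97%). Of the podocyte markers 1 of 12 was higher without treatment and 2 after rapamycin, and of the tubule markers 1 of 4 tested was lower each time. The macrophage and leukocyte markers overlapped without treatment (-0.31 to 0.41 against -1.29 to 0.05), with 2 of 10 higher, and none passed after rapamycin. No endothelial marker passed between genotypes, and the mean of these markers was lower on all 8 rapamycin arrays (-2.63 to -1.28) than on 7 of the 8 untreated arrays, with Tsc2flox/flox replicate 3 at -2.07. Their part in the differences above was not tested.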

How the data were processed

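Scanner files of 16 one-colour arrays were used. The authors extracted background-subtracted intensity values with Agilent Feature Extraction 10.7.3.1, and the deposited series table holds log2 values made from them, used here as an alternative. Their microarray methods name no test, and the t-test of their general methods was run as an alternative, called the methods' t-test. Here log2 intensity minus each array's 75th percentile was fitted in limma 3.58.1 (R 4.3.3) with 4 group means over 16 arrays and Benjamini-Hochberg adjustment over 27579 probes, those that 1 group or more had well above background on each of its 4 arrays. A probe passed at an adjusted p under 0.05, and the authors' 1.5-fold threshold was an alternative. Other alternatives were quantile normalization, normexp (offset 50, then quantile), other filters on dim probes, the compared arrays alone, another prior, a replicate block and leaving out each array. Repeated spots were averaged on the log2 scale. Lists used each gene's brightest tested probe. Correlations used 100000 permutations or, for 8 arrays or fewer and within groups, all of them, 2-sided. Pairing of the samples by replicate number was not shown. The fit was tested on simulated data. Members, lists and tests were chosen with earlier results of these data known. All member probes are named, and of each list up to 3 members with the smallest p. Some listed items are not reported here. Accessions were named through RefSeq (GRCm38.p6). The number of arrays limits the precision.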

Additional observations from a re-analysis of the deposited data

Results flagged for a closer look

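In groups of 4 arrays, an array was singled out where its gap to the nearest other array as a share of the group's range exceeded Dixon's 95% critical value for 4 values, which chance gives in about 1 of 20 groups. Of 48 groups of member values, 7 had such an array. Tsc2flox/flox replicate 2 was low on both Sqstm1 probes, at 6.03 with the next at 6.43 (gap over range 0.905) and at 3.42 with the next at 4.07 (0.862). Without that array the untreated Sqstm1 differences were 1.01 and 1.10, the smallest of the runs that left out 1 array. On the second Sqstm1 probe, Tsc2Δpodocyte replicate 1 was low at 5.07 with the next at 5.26 (0.913). On the dimmer Nfe2l1 probe, Tsc2Δpodocyte replicate 2 was high at -0.03 with the next at -0.48 (0.849). Cul3 was low on Tsc2flox/flox + Rapamycin replicate 2, at 0.31 with the next at 0.77 (0.848). Mafk was low on Tsc2Δpodocyte + Rapamycin replicate 2, at 1.52 with the next at 2.07 (0.904), and on Tsc2flox/flox + Rapamycin replicate 3, at 1.505 with the next at 1.71 (0.877). The probes of Cul3 and Mafk and the dimmer Nfe2l1 probe did not pass in any comparison by limma over all 16 arrays, though by the methods' t-test Cul3 passed without treatment, and so did the dimmer Nfe2l1 probe before adjustment.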

How the results depend on the processing

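Other analysis choices and the omission of each of 16 arrays made 26 alternatives. The 60 member values (12 probes, 5 comparisons) gave 1524 alternative values, of which 1456 kept their side of the threshold, 53 lost it, 14 gained it and 1 turned. Direction was kept in all but 44, the 1 that turned and 43 that passed in neither setting. The 1 that turned was Mafg after rapamycin, 0.03 by the 75th percentile and -0.31 with normexp (limma adjusted p = 0.0111).

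Without treatment 5 probes were higher, and 3 were with quantile normalization, with no filter on dim probes, with only the arrays compared, with the replicate block and with a 1.5-fold minimum, 2 by the methods' t-test with adjustment, 7 without adjustment (with Mafg and the dimmer Nfe2l1 probe), and 3 to 5 when 1 array was left out. The count of lower probes, 0, was 1 with normexp (Maff, -0.33), 1 by the methods' t-test with adjustment (Cul3), 2 without adjustment and 0 to 1 when 1 array was left out. After rapamycin the count of higher probes, 3, was 1 with normexp (Nqo1, gained, while all 3 were lost), 1 by the methods' t-test with adjustment (Nfe2l2), 5 without adjustment, and 2 to 3 when 1 array was left out. With only the arrays compared, both Sqstm1 probes were lost after rapamycin and Nqo1 was gained. With no filter on dim probes, the dimmer Sqstm1 probe was lost after rapamycin. The count of lower probes, 2, was 1 with normexp (Mafg, turned, while Bach1 and Maff were lost), 1 with only the arrays compared and 1 by the methods' t-test with adjustment (Maff both times), 0 with no filter or a 1.5-fold minimum, and 0 to 2 when 1 array was left out. For rapamycin against no treatment in Tsc2Δpodocyte podocytes the count of lower probes, 0, was 1 with normexp (Mafg) and 1 by the methods' t-test without adjustment (Nqo1). The interaction count stayed 0 in every alternative run.

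Pairing of the samples by replicate number was not shown, and 4 pairs a comparison are too few to exclude it. Deviations of same-numbered arrays had r of -0.295 to -0.006 between the untreated genotypes (median -0.138). Between the rapamycin genotypes r was -0.023 to 0.464 (median 0.232), and arrays of different number had a median of 0.002. The best partner shared the number in 10 of 48 cases. With the replicate block the untreated calls of Nfe2l2 and of the brighter Nfe2l1 probe were lost (limma adjusted p = 0.0663 and 0.0600). The pooled correlation of Sqstm1 and Nqo1 was 0.785 to 0.878 when 1 array was left out, and that of deviations -0.102 to 0.343, turning without Tsc2flox/flox replicate 2. Alternatives for the listed NRF2 targets were chosen after seeing the data: 25 to 30 were higher without treatment and 11 to 23 after rapamycin, and 0 to 21 were lower with rapamycin in Tsc2Δpodocyte podocytes. The cause of these changes was not tested. All member probes were well above background and unsaturated on every array, and the number of arrays limits the precision.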
